A study of Mus musculus with 4 samples.

Results

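Internal multi-exon circles flanked by long introns made up 953 of the 4074 exonic circular RNAs (circRNAs) in differentiated C2C12 cells, or 23.4%, and 1.38% of the 69136 circles of every kind. A circle is identified by chromosome, start, end and strand, with mm9 positions counted from 1. A member joins at least 2 annotated exons, starts no earlier than the third exon of its transcript model, and has an intron of at least 3000 nt on each side of the back-splice junction, the point that closes the ring. Membership was set by annotation alone, and no read count entered it except to choose between rows that annotate the same circle differently. By such other rows 21 further circles would have met the rule. Every member has an annotated intron on both sides, so none includes a terminal exon of its model.

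C2C12 is an established line of mouse myoblasts, muscle precursors that form myotubes when serum is lowered, and all RNA came from cells given 2% horse serum as differentiation medium during 3 to 4 days. RPAD RNA was prepared by a protocol, in which linear RNA is removed by RNase R digestion for 30 min, polyadenylation of the linear RNA that remains and depletion of poly(A)+ RNA (2 libraries). It was set against total RNA of the same line with none of these steps (2 libraries). The comparison asks how the read circles differ with linear RNA taken away. Separate cultures are not stated for the 2 libraries of a group, so p-values reflect only how far these libraries differ, and that spread may be technical. The files do not pair their transcript identifiers with gene names, so circles and hosts are given by position and exon number, and markers of myotubes were not checked here.

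A circRNA forms when the spliceosome joins a downstream 5′ splice site to an upstream 3′ splice site, which leaves a closed ring with no free end. Introns that flank circularized exons are typically long, and inverted repeats within them can pair and bring the splice sites together. RNA-binding proteins that bridge the flanking introns can do the same. RNase R degrades linear RNA from its 3′ end and spares closed rings, which is why it is used to enrich circRNAs.

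The members were mostly short rings of a few exons drawn from wide genomic intervals. Their number of exons had a median of 5 (quartiles 3 and 7) and reached 30, and 146 members had 2 exons. Spliced length had a median of 702 nt (quartiles 459 and 1070, range 108 to 5687). The genomic distance between the joined splice sites had a median of 15075 nt and reached 425162 nt. The upstream intron had a median length of 10037 nt and the downstream intron 10579 nt, and the upstream intron was the longer of the pair in 47.0% of members. The first exon of the ring was exon 3 of the model in 218 members, exon 4 in 189 and exon 10 or later in 215, with a median of 5.

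Introns inside the rings were shorter than those around them in most members. The median inner intron was shorter than the shorter flanking intron in 829 of 953 members (87.0%), and the longest inner intron was shorter than the shorter flanking intron in 513 (53.8%). The rule fixes the flanking length at 3000 nt or more, so these shares are partly set by it. Among the 1217 internal multi-exon circles with at least 1 flanking intron under 3000 nt, called here circles with a shorter flanking intron, the corresponding shares were 39.8% and 18.2%.

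Fewer members were listed in RPAD RNA, and a listed member had more reads on average. RPAD libraries 1 and 2 listed 125 and 188 members, and total RNA libraries 1 and 2 listed 499 and 444. The means were 156.5 ± 44.5 in RPAD and 471.5 ± 38.9 in total RNA (SD, n = 2 each; exact two-sided permutation p = 0.33, the smallest that 2 libraries against 2 can give). Reads per listed member averaged 103 and 161 in the RPAD libraries, against 7.72 and 7.96 in the total RNA libraries (exact permutation p = 0.33). Neither measure overlapped between the groups. The internal multi-exon circles with a shorter flanking intron averaged 126 and 114 reads per listed circle in RPAD and 9.42 and 10.1 in total RNA. The RPAD libraries were the deeper ones, and with each library brought to the exonic reads of the shallowest the expected reads per listed member were 31.5 and 31.5 in RPAD and 7.43 and 7.96 in total RNA, a calculation added after the data were seen (exact permutation p = 0.33). In bulk RNA, fewer cells that make a circle and less of it per cell cannot be told apart.

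The order of the groups was the same at equal depth. Back-splice reads on exonic circles numbered 55971 and 91868 in RPAD and 16179 and 15392 in total RNA, out of 150478 and 191246 back-splice reads of every kind in RPAD and 38850 and 35981 in total RNA. At an equal 15392 exonic reads, the exact expected number of listed members was 113 and 161 in RPAD and 493 and 444 in total RNA (exact permutation p = 0.33). Members with 1 read made up 7.20% and 4.26% of the RPAD lists and 22.4% and 18.9% of the total RNA lists. The sets of circles with a shorter flanking intron also differed, with 131 and 206 listed in RPAD and 586 and 553 in total RNA. Members made up 25.1% and 24.2% of listed exonic circles in RPAD and 24.1% and 24.4% in total RNA, so these shares overlapped.

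**Figure D1:**
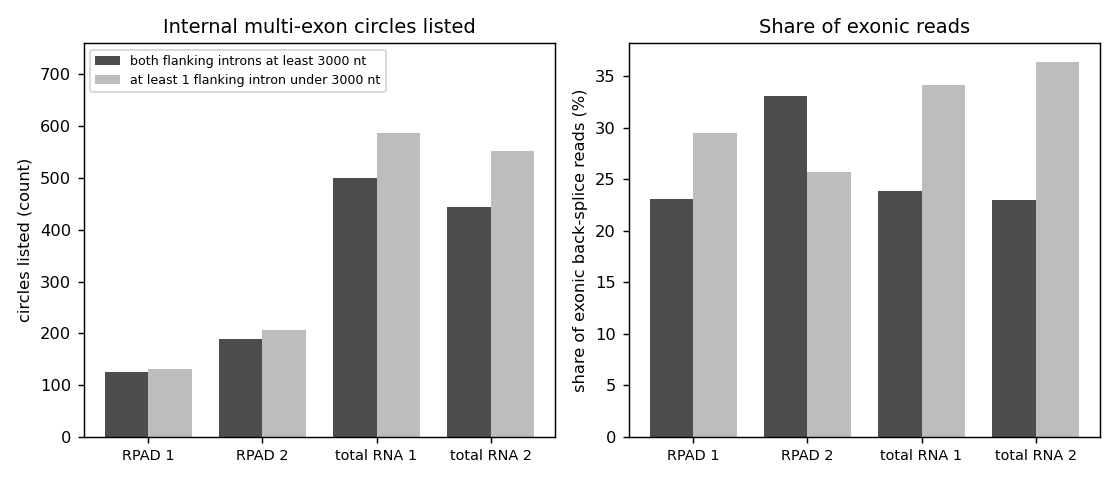
Number of listed internal multi-exon circles (left) and their share of exonic back-splice reads in percent (right) in each of the 4 libraries, for circles with both flanking introns of at least 3000 nt (dark bars) and with at least 1 under 3000 nt (light bars). The RPAD libraries list fewer circles of both kinds, and RPAD 2 is the only library in which the dark bar of the right panel, at 33.0%, is above the light one.

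The members' share of exonic reads was 23.0% to 23.8% in 3 libraries and higher in RPAD 2. Members held 23.1% of exonic reads in RPAD 1 (95% Clopper-Pearson interval 22.8 to 23.5) and 33.0% in RPAD 2 (32.7 to 33.3). They held 23.8% in total RNA 1 (23.2 to 24.5) and 23.0% in total RNA 2 (22.3 to 23.6). The groups overlapped (exact permutation p = 0.667). RPAD exceeded total RNA by 4.68 points on average, and without RPAD 2 the difference was -0.28 points, so it rested on that library. These intervals cover counting error only, since PCR copies carried no molecular identifiers.

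Relative to circles with a shorter flanking intron, members had more reads in RPAD than in total RNA. The log2 ratio of member reads to reads on those circles was -0.35 and 0.36 in RPAD and -0.52 and -0.66 in total RNA (means 0.01 ± 0.51 and -0.59 ± 0.10, SD, n = 2 each). The ratio did not overlap between the groups, with an exact permutation p of 0.33, the smallest possible. The difference was 0.60 on the log2 scale, 0.24 without RPAD 2 and 0.96 without RPAD 1. A single host on chromosome 2, between 76562431 and 76820604, held 45.3% and 31.5% of the shorter-intron reads in RPAD and 47.5% and 47.1% in total RNA, and it has no member. Without that host the log2 ratios were 0.52 and 0.91 in RPAD and 0.41 and 0.26 in total RNA, a difference of 0.38. With the intron threshold raised to 10000 nt, they were -2.25 and -1.68 in RPAD and -2.19 and -2.60 in total RNA. The groups then overlapped (exact permutation p = 0.667).

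Reads were concentrated on fewer members after RPAD. The 10 most-read members of each library took 46.5% and 44.7% of member reads in RPAD, against 20.3% and 20.4% in total RNA (exact permutation p = 0.33). For circles with a shorter flanking intron the order was the same, with 61.1% and 50.7% in RPAD and 46.2% and 49.5% in total RNA. Members with at least 100 reads numbered 34 and 55 in RPAD and 3 and 1 in total RNA. The read-weighted median of the shorter flanking intron was 8503 and 8343 nt in RPAD and 8500 and 7341 nt in total RNA (exact permutation p = 0.667). That of spliced length was 666 and 782 nt in RPAD and 728 and 667 nt in total RNA (exact permutation p = 1). Neither length separated the preparations.

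The member with the highest mean share of exonic reads was chr5:107063850-107067654, on the minus strand. Exons 4 to 6 of the model make up the ring, 2558 nt in all, between an upstream intron of 52035 nt and a downstream intron of 15188 nt. It had 997 and 1466 reads in RPAD (1.78% and 1.60% of exonic reads) and 110 and 39 reads in total RNA (0.68% and 0.25%). Both RPAD shares were above both total RNA shares. Its log2 fold change, RPAD over total RNA and relative to the other tested circles, was 1.54 (SE 1.27), and it did not pass the test (edgeR quasi-likelihood test, Benjamini-Hochberg adjusted p = 0.986, and between 0.120 and 1 in the alternatives).

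A longer ring from the same start, which adds exon 7, behaved differently between the RPAD libraries. This circle, from 107048559 to 107067654, has 2661 nt and lies between introns of 52035 and 61483 nt. It had 34 and 1440 reads in RPAD and 54 and 25 in total RNA. It had about as many reads as the shorter ring in RPAD 2 and fewer in the other libraries.

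Other abundant members were read deeply in 1 RPAD library and little or not at all in the other. Circle chr7:73445748-73453773 (6 exons, 847 nt) had 0 and 2472 reads in RPAD and 2 and 1 in total RNA. Circle chr1:140936577-140959548 (6 exons, 486 nt) had 54 and 1907 reads in RPAD and 9 and 31 in total RNA. Circle chr12:87184728-87205559 (6 exons, 559 nt) had 1 and 1522 reads in RPAD and 0 in both total RNA libraries. All of these were higher in RPAD 2 than in RPAD 1.

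Others among the 12 had the opposite order. Circle chr5:66842707-66853405 (2 exons, 885 nt) had 758 and 0 reads in RPAD and 48 and 10 in total RNA. Circle chr1:130087215-130093674 (4 exons, 572 nt) had 760 and 0 reads in RPAD and 1 and 0 in total RNA. Circle chr18:73816849-73822521 (4 exons, 498 nt) had 598 and 15 reads in RPAD and 39 and 5 in total RNA. These were higher in RPAD 1. Circle chr16:17671638-17674751 (3 exons, 713 nt) also belonged here, with 601 and 0 reads in RPAD and 29 and 3 in total RNA.

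The member read most in total RNA was in 1 RPAD library only. Circle chr2:34287523-34299926 (3 exons, 567 nt) had 181 and 0 reads in RPAD and 135 and 192 in total RNA, the largest share of any member in each total RNA library (0.83% and 1.25%). Circle chr6:115992889-116084475, a ring of 2 exons and 1626 nt that spans an inner intron of 89961 nt, had 0 and 447 reads in RPAD and 61 and 74 in total RNA. Circle chr1:153286646-153290456 (4 exons, 399 nt) had 0 and 1090 reads in RPAD and 0 and 11 in total RNA.

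**Figure D2:**
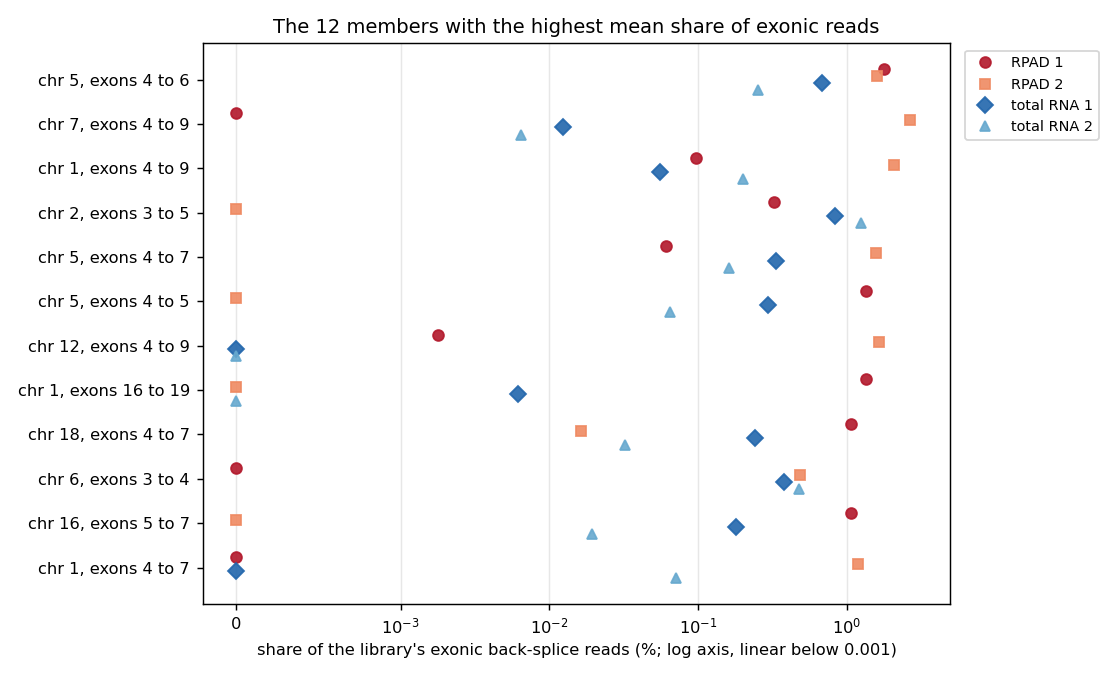
Share of each library's exonic back-splice reads (percent, log axis that is linear below 0.001) for the 12 members with the highest mean share, 1 row per circle, named by chromosome and exon numbers, with 1 symbol per library. In most rows the symbols of RPAD 1 and RPAD 2 lie far apart; the top row, with 1.78% and 1.60%, is the exception.

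The libraries of a group shared few members. Of 283 members listed in RPAD, 30 (10.6%) were in both libraries, which is 24.0% of the RPAD 1 list and 15.96% of the RPAD 2 list. Of 814 listed in total RNA, 129 (15.8%) were in both, 25.9% and 29.1% of the lists. Over all exonic circles the shares in both libraries were close to these, at 10.5% in RPAD and 15.4% in total RNA. Among members with at least 20 reads in RPAD 1, 72.8% (59 of 81; 95% interval 61.8 to 82.1) were not listed in RPAD 2, and from RPAD 2 to RPAD 1 the share was 78.8% (93 of 118; 70.3 to 85.8). In total RNA the share was 37.5% in each direction (15 of 40; 22.7 to 54.2). Over all exonic circles these shares were 68.9% and 73.6% in RPAD and 27.3% and 28.7% in total RNA. A count of 0 in 1 RPAD library is therefore common among members with many reads in the other.

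**Figure D3:**
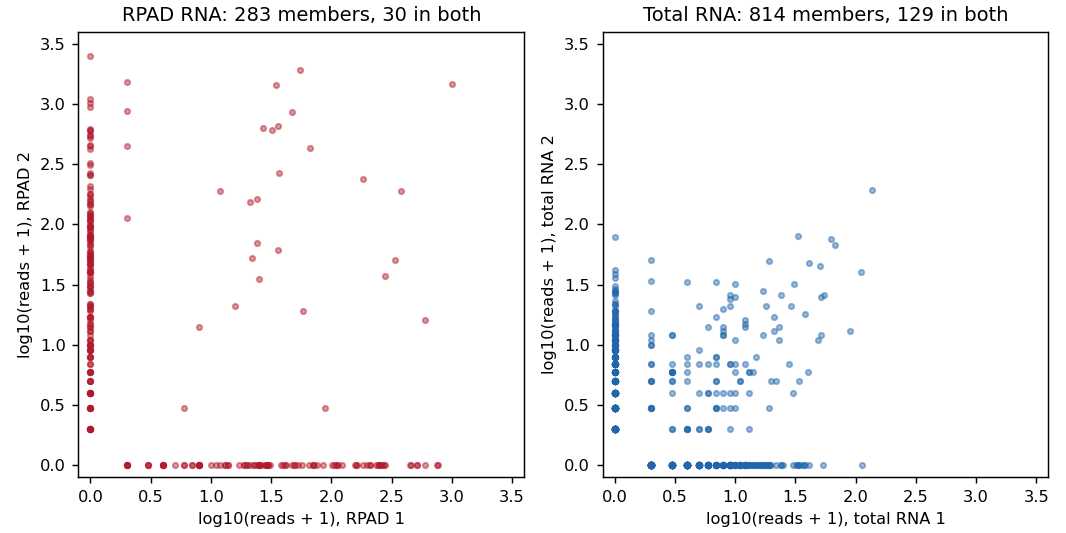
Reads per member, as log10(reads + 1), in library 2 against library 1 of RPAD RNA (left, 283 members) and of total RNA (right, 814 members), 1 point per member. Points on the axes were listed in 1 library only; in RPAD they reach the highest read counts, and 30 members lie off the axes.

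No member passed the test of RPAD against total RNA. edgeR's quasi-likelihood test was fitted on all circles, and 924 passed the low-count filter, among them 140 members. It called 0 of the 140 members at a Benjamini-Hochberg adjusted p under 0.05, as of all 924 circles tested (percent called 0). Before adjustment, 3 members had p under 0.05 and were higher in RPAD, against 1.73% of all circles tested, and 33 were lower, against 15.8%. Those are 2.14% and 23.6% of the tested members. Among tested exonic circles the shares were 2.81% higher and 27.9% lower, and among tested circles with a shorter flanking intron 4.35% and 31.3%. As many tested members, 33, had no read in either RPAD library. Of tested exonic circles 129 were lower and 128 had no RPAD read, and of all tested circles 146 and 144. Circles without RPAD reads passed the filter through total RNA alone. The shares lower in RPAD are therefore largely set by the filter, and no ranking is drawn from them. DESeq2 called 2 members with its own independent filter, against 3.47% of the circles to which it gave an adjusted p, and 21 members had none. Without that filter it called 0 members. By its unadjusted p, 2 members were higher and 35 lower, and the share of all circles tested was not counted. The counts depended on each RPAD library: without RPAD 1 edgeR called 52 members (19.9% of all circles tested were called), and without RPAD 2 it called 54 (23.2%).

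These counts describe only members that passed the filter, which sets a minimum relative to library size in 2 or more libraries and so needs fewer reads in total RNA. Of the 140, 33 had no read in either RPAD library and 4 none in either total RNA library. The groups did not overlap, on the scaled reads, for 8 members higher in RPAD (5.71%, against 9.96% of all circles tested) and 49 lower (35.0%, against 28.1%). Among tested exonic circles these shares were 6.71% and 42.0%, and among tested circles with a shorter flanking intron 7.83% and 48.7%. The median log2 fold change was -0.46 over tested members and -0.15 over all circles tested. With DESeq2 size factors these medians were -0.06 and 0.18, with library totals -0.56 and 0.04, and with at least 10 reads in 2 libraries -0.38 and 0.08. Over the 462 exonic circles tested the median was -1.07, and in a fit of exonic circles alone it was -0.50 for members and -0.88 for all circles tested, so the side on which members lay depends on the circles they are set against.

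Among members lower in RPAD, the 4 with the smallest p had 0 reads in both RPAD libraries. Circle chr9:22448189-22483508 (exons 12 to 18, 786 nt) was read 67 and 66 times in total RNA. Its downstream intron has 114686 nt. Circle chr2:146714757-146717020 (2 exons, 950 nt) was read 6 and 7 times in total RNA, chr18:7901494-7910822 (4 exons, 645 nt) 8 and 6, and chr2:76861503-76868764 (4 exons, 633 nt) 9 and 6. These circles passed the filter through total RNA alone, and a member with many reads in 1 RPAD library often had 0 in the other, so no fold is given from their 0 reads. Each of these 4 circles had an adjusted p of 0.179 by edgeR with Benjamini-Hochberg adjustment (0.000702 to 1 over the alternatives of the first).

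Among members higher in RPAD, the 4 with the smallest p had 0 reads in both total RNA libraries. Circle chr1:130090037-130093674 (2 exons, 421 nt) was read 46 and 847 times in RPAD. Circle chr16:33725511-33742582 (8 exons, 2211 nt) had 31 and 609 RPAD reads. Circle chr9:62767158-62771462 (4 exons, 359 nt) was more even, with 35 and 60 RPAD reads. Circle chr1:53313473-53338936 (4 exons, 602 nt) was even too, with 15 and 20 RPAD reads. Their edgeR Benjamini-Hochberg adjusted p was 0.216, 0.264, 0.224 and 0.533. These circles passed the filter through RPAD alone, and a member read in 1 library often had 0 reads in the other. No fold is therefore given from their 0 reads in total RNA.

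Members read in both total RNA libraries were recovered in RPAD in part. Of 56 members read 5 times or more in each total RNA library, 14 were listed in both RPAD libraries (95% interval of the share 14.4% to 38.4%), 21 in 1 and 21 in neither (37.5%; 24.9 to 51.5). For the 53 circles with a shorter flanking intron that met the same minimum, the numbers were 15, 14 and 24, and the intervals overlapped those of the members. At a minimum of 10 reads, 8 of 27 members and 15 of 30 circles with a shorter flanking intron were in both RPAD libraries, with overlapping intervals. At a minimum of 20 reads, 16 circles with a shorter flanking intron remained, 9 in both RPAD libraries and 3 in neither. At that minimum 12 members remained, of which 6 were in both RPAD libraries and 2 in neither. Those 2 were the chromosome 9 circle from 22448189 and chr18:32367062-32380288 (8 exons, 990 nt), read 40 and 47 times in total RNA.

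**Figure D4:**
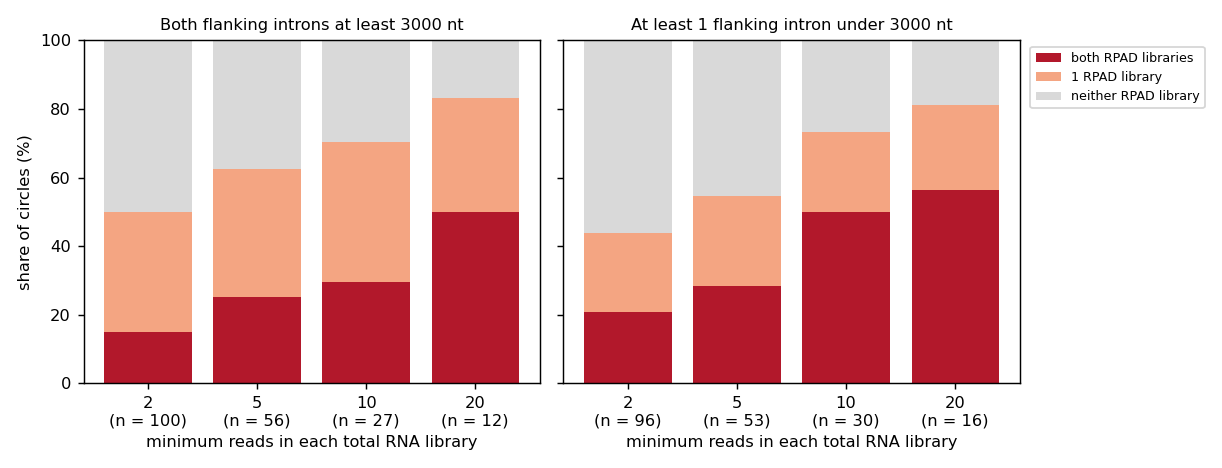
Share of circles (percent) listed in both, 1 or neither RPAD library, by the minimum number of reads asked for in each total RNA library, for members (left) and for circles with at least 1 flanking intron under 3000 nt (right); n is the number of circles. Of the members, 50 of 100 are in neither RPAD library at a minimum of 2 reads and 2 of 12 at 20 reads.

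Members listed in RPAD had more often been read in total RNA too than circles with a shorter flanking intron. Of the 283 members in the RPAD lists, 144 were also in a total RNA list (50.9%; 95% interval 44.9 to 56.8), against 97 of 303 shorter-intron circles (32.0%; 26.8 to 37.6). From the other side, 17.7% of the 814 members in total RNA and 9.59% of the 1011 shorter-intron circles were in an RPAD list. Within each library, the share of listed circles also listed in any other library was 61.6% and 55.3% in RPAD and 35.7% and 37.4% in total RNA for members. For shorter-intron circles it was 50.4% and 34.0% in RPAD and 26.6% and 27.1% in total RNA. It was higher for members in 4 of 4 libraries (exact permutation p over the 4 library pairs 0.125, the smallest possible). The permutation p was 0.150 after Benjamini-Hochberg adjustment over 6 such contrasts of listed circles, all added after the data were seen. A circle in several lists counts in each, so the 4 libraries are not independent in these contrasts. Circles with 1 read over all libraries made up 16.8% of members and 30.0% of shorter-intron circles, and the part of this in the difference was not tested. Listing in all 4 libraries was not more frequent for members, at 1.57% against 1.73% of shorter-intron circles.

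In total RNA, the reads of members lay less on circles shared with RPAD than those of shorter-intron circles did. Members absent from both RPAD libraries held 60.1% and 63.1% of member reads in total RNA 1 and 2, whereas for shorter-intron circles these shares were 40.5% and 42.3%. By number of circles, the order was the opposite, as given above. The chromosome 2 host without members held 47.5% and 47.1% of the shorter-intron reads in total RNA, and its part in this difference was not tested. Members absent from both total RNA libraries held 25.5% and 33.6% of member reads in RPAD 1 and 2, against 28.6% and 40.9% for shorter-intron circles, the same order as in the lists. In all, 670 members were listed in total RNA alone, with a median of 3 reads, and 139 in RPAD alone, with a median of 25 reads. Of the 129 members in both total RNA libraries 71 were in no RPAD library, and of the 30 members in both RPAD libraries 7 were in no total RNA library.

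The 15 members listed in all 4 libraries had 2 to 10 exons and shorter flanking introns of 3477 to 52035 nt (median 13783). Their reads ranged from 1 to 997 (median 24) in RPAD 1, from 13 to 1907 (median 160) in RPAD 2, from 3 to 110 (median 22) in total RNA 1 and from 5 to 79 (median 24) in total RNA 2. Among them was chr16:94624921-94633730 (5 exons, 452 nt), with 183 and 235 reads in RPAD and 23 and 25 in total RNA. Circle chr8:81642074-81660562 (3 exons, 402 nt) had 23 and 69 reads in RPAD and 32 and 79 in total RNA. Circle chr10:62239316-62239711 (2 exons, 308 nt), with the shortest flanking introns of the 15, had 23 and 160 reads in RPAD and 50 and 44 in total RNA. These examples were chosen after their values were seen.

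Of 4 ranges of the shorter flanking intron, the longest had the highest share of members listed in more than 1 library, and the difference was not tested. With the shorter flanking intron from 3000 to under 5000 nt, 58 of 304 members (19.1%) were in more than 1 library. The share was 22.6% of 354 members from 5000 to under 10000 nt, 25.8% of 198 from 10000 to under 20000 nt and 34.0% of 97 at 20000 nt or more. Listing in both total RNA libraries had shares of 11.8%, 11.3%, 15.7% and 22.7% in the same order, and in both RPAD libraries 1.97%, 2.82%, 3.54% and 7.22%. The share in both total RNA libraries did not follow the order of length over the first ranges, and its first and last intervals, 8.43% to 16.02% and 14.8% to 32.3%, overlapped. Read counts followed intron length weakly at most: Spearman's rho of the shorter flanking intron with summed reads was 0.11 over 283 members in RPAD and 0.08 over 814 in total RNA, given as a description across circles that share libraries. Against spliced length rho was 0.09 in RPAD and 0.05 in total RNA.

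**Figure D5:**
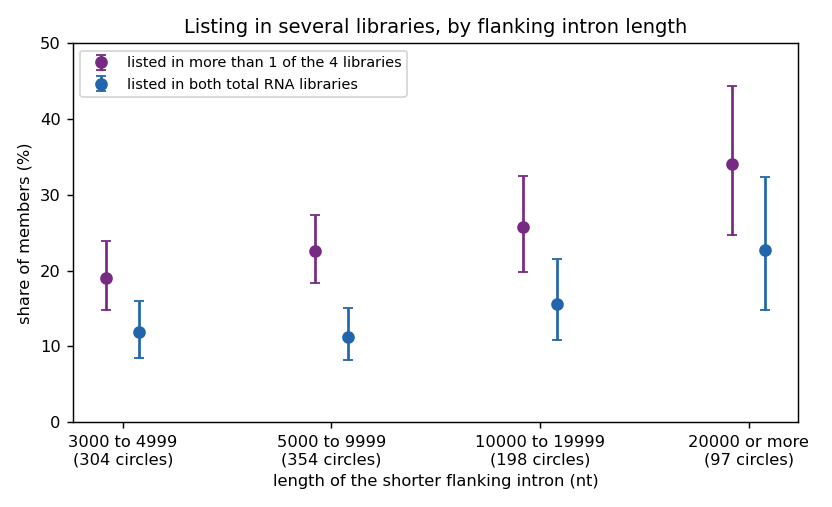
Share of members (percent, with 95% Clopper-Pearson intervals) listed in more than 1 of the 4 libraries and in both total RNA libraries, in 4 ranges of the shorter flanking intron's length (nt). The share listed in more than 1 library is 19.1% in the first range and 34.0% in the last, and neighbouring intervals overlap.

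The members with the longest introns among those in at least 3 libraries also differed in their reads between libraries. Circle chr19:28605363-28614898 (2 exons, 1322 nt) lies between introns of 125344 and 172920 nt, and had 35 and 657 reads in RPAD and 0 and 6 in total RNA. The chromosome 5 circle from 107048559, described above, came second. Circle chr18:25498215-25503463 (2 exons, 770 nt), between introns of 49647 and 54963 nt, had 0 and 59 reads in RPAD and 51 and 11 in total RNA. The first of these was read mostly in RPAD and the last mostly in total RNA relative to depth.

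Among members in at least 3 libraries, the ring with most exons joined 16, exons 3 to 18, on chr9:99396570-99438178 (1603 nt). It had 0 and 255 reads in RPAD and 21 and 4 in total RNA. Rings of 10 exons lay on chr10:50337518-50380532 (1913 nt), with 1 and 863 reads in RPAD and 8 and 6 in total RNA, and on chr13:55335256-55384143 (3838 nt), with 9 and 0 against 2 and 5. Members of 10 or more exons, 108 in all, were in more than 1 library in 10.2% of cases, against 25.3% of the 146 members of 2 exons.

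Members often shared a splice site with other exonic circles. A start or end was shared with another exonic circle by 500 of 953 members (52.5%) and by 437 of 1217 circles with a shorter flanking intron (35.9%). Within the lists the share was 68.0% and 61.2% in RPAD and 56.5% and 54.5% in total RNA for members. For shorter-intron circles it was 51.1% and 48.5% in RPAD and 39.8% and 39.6% in total RNA, lower in 4 of 4 libraries (exact permutation p = 0.125; adjusted 0.150). Sharing was judged over the circles of all 4 libraries together, not within each list. Of the 15 members in all 4 libraries, 13 shared an end.

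Intronic circles, which the files list apart from exonic ones, were rarer in the flanking introns of members. At least 1 flanking intron also gave an intronic circle for 77 members (8.08%) and for 235 shorter-intron circles (19.3%). Within the lists the shares were 4.80% and 11.2% in RPAD and 8.02% and 8.78% in total RNA for members, and 19.8% and 19.9% in RPAD and 18.6% and 18.4% in total RNA for shorter-intron circles. They were lower for members in 4 of 4 libraries (exact permutation p = 0.125; adjusted 0.150). Intronic circles of all 4 libraries together were used here, not those of each list. Rings of 2 exons were also fewer among members, at 15.3% against 24.7%, in 4 of 4 libraries (exact permutation p = 0.125; adjusted 0.150). A spliced length that is a multiple of 3, which preserves the reading frame around the ring, was found in 40.7% of members and 44.7% of shorter-intron circles, with the same test result. Median spliced length was longer for members in 3 of 4 libraries (exact permutation p = 0.250; adjusted 0.250).

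The 953 members came from 609 host groups, that is, transcript models linked by a shared back-splice junction or intron. Of these, 413 had 1 member, 196 had 2 or more, which together held 540 members, and 21 had 5 or more. The host with most members lay on chr2:76861503-76966394 (ENSMUST00000049544), with 9 members built from 7 starts and 6 ends. Its members had 0 and 78 reads in RPAD and 31 and 14 in total RNA. Of its rings, the one from 76927127 to 76946536 (2 exons) had 0 and 68 reads in RPAD and 0 in total RNA, while the one from 76861503 to 76887815 (10 exons) had 0 in RPAD and 15 and 0 in total RNA.

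A host on chr8:79801047-79950330 had 8 members, with 214 and 86 reads in RPAD and 13 and 5 in total RNA. Its ring from 79834630 to 79889059 (6 exons, 639 nt) took 209 and 0 of the RPAD reads, and the ring from 79801047 to 79889059 (7 exons, 799 nt), with the same genomic end, took 0 and 78. The most-read ring of this host differed between the RPAD libraries.

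A host on chr1:130064470-130120218 had 7 members, with 834 and 1482 reads in RPAD and 19 and 7 in total RNA. RPAD 1 read mostly the ring from 130087215 to 130093674 (760 and 0 reads). RPAD 2 read mostly the rings from 130090037 to 130093674 (46 and 847) and from 130090037 to 130120218 (26 and 635). In total RNA the last of these had 11 and 0 reads. Exon numbers follow the model named in the row with most reads, so they are not comparable between these rings.

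A host on chr6:65805943-65851853 had 7 members, with 84 and 371 reads in RPAD and 42 and 44 in total RNA. Its rings were built from 4 starts and 3 ends. The ring from 65812909 to 65836172 had 36 and 266 reads in RPAD and 8 and 0 in total RNA. The ring from 65819175 to 65851853 was in every library, with 24 and 34 reads in RPAD and 16 and 11 in total RNA. The ring that joins the start of the first to the end of the second, 65812909 to 65851853, had 0 in both RPAD libraries and 11 and 14 reads in total RNA. A host on chr7:56653453-56831190 had 7 members with 0 reads in RPAD and 7 and 8 in total RNA, at most 4 reads for any ring in a library.

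Within 100 nt of the threshold lay 23 members and 24 circles just outside. Inside, the most-read were chr19:45015949-45035365 (shorter intron 3039 nt; 0 and 266 reads in RPAD, 1 and 0 in total RNA), chr14:73668918-73694837 (3023 nt; 0 and 42, against 0 and 2) and chr6:149273927-149280028 (3085 nt; 0 and 0, against 40 and 0). Outside, they were chr2:73683496-73684432 (2992 nt; 116 and 0 reads in RPAD, 3 and 0 in total RNA), chr12:35770611-35792228 (2967 nt; 13 and 40, against 19 and 13) and chr12:117584977-117596407 (2983 nt; 0 and 83, against 0 and 0). Apart from the chromosome 12 circle with the shorter intron of 2967 nt, each of these was read mostly in 1 library.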

How the data were processed

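Back-splice junctions were read in 2 RPAD and 2 total RNA libraries, grouped and numbered by the sample titles. Ribosomal RNA was removed, per the labels' protocols, and cDNA was amplified (NuGEN Ovation, 17 cycles of PCR after ligation) and sequenced on an Illumina HiSeq2500; the protocol names HeLa RNA in the RNase R step, while all libraries are labelled C2C12. Per the submitters' processing notes, cutadapt, TopHat, Cufflinks 2.2.1 and mm9 were used; no source used here names the junction caller. The deposited values are raw counts of back-splice reads per circle, per the file headers, and a deposited score for each junction that no source used here explains; 1 alternative kept score 0 only.

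Where a library did not list a circle, its count was taken as 0. Class measures were set against each other over libraries with two-sided exact permutation. Per-circle tests used edgeR 4.0.16 in R 4.3.3 (quasi-likelihood F test, TMM, filterByExpr with a minimum count of 5 and total of 10, group as the only term, Benjamini-Hochberg over all circles tested), with DESeq2 1.42.0 as an alternative. The edgeR fit was also run on simulated counts. Their spread was preset and not matched to that between the RPAD libraries. The SE is the absolute log2 fold change over the square root of F. Expected numbers at equal depth are hypergeometric, with no random draw. Other steps ran in Python 3.11.15 (scipy 1.17.1, pandas 2.3.3, numpy 2.4.6), figures in matplotlib 3.10.9. The files hold no marker of PCR copies, so intervals cover counting error only.

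Named circles are the 12 members with the highest mean share of exonic reads, in each direction the 4 tested members of smallest p, the most-read rings of the 5 hosts with most members, the 3 with the longest shorter intron and the 3 with most exons among members in at least 3 libraries, and the 3 most-read on each side of the threshold. The members, lists and tests were chosen with earlier results of these data known. The gene lists written down for this work could not be used, since the files pair no identifier with a name. The replicate numbers were not taken as pairs: deviations of same-numbered libraries correlated at 0.0411.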

Additional observations from a re-analysis of the deposited data

How the results depend on the processing

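With 2 libraries a group no class comparison could pass 0.05, so only directions are described. Listed members, listed members at equal depth, reads per listed member, the top 10 share and the log2 ratio to shorter-intron circles kept their direction under all 9 alternatives, including leaving out the host with most exonic circles, which was chosen after seeing the data, and so did reads per listed member at equal depth. The log2 ratio kept its direction with introns of at least 10000 nt, but the groups then overlapped. The member share of exonic reads (RPAD minus total RNA) was -0.28 to 9.64 points with 1 library left out. The share of listed exonic circles was -0.066 to 0.79 points with 1 library left out and -3.47 points with at least 2 reads per circle. The read-weighted shorter flanking intron was -77.0 to 1082 nt with 1 library left out and -44.5 nt with introns of at least 5000 nt. The read-weighted spliced length was -31.5 to 84.5 nt with 1 library left out.

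Calls of members were 0 with edgeR under every setting that kept all 4 libraries, the replicate block included, 2 with DESeq2 and its independent filter, 0 with DESeq2 without it (added after seeing the data), and 0 to 54 with 1 library left out. Fits that left out 1 RPAD library assume that the lone one varies like the total RNA pair. Most members called both without RPAD 1 and without RPAD 2 had no read in either RPAD library. Such members passed the filter through total RNA alone, so these calls are not read as repeated findings. With the replicate block, no member had an unadjusted edgeR p under 0.05 (0 higher, 0 lower). Without the filter, over 953 members, 4 were higher and 0 lower at the same unadjusted threshold. The share of all circles under these settings was not counted.

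Fold changes of most tested abundant members changed sign with the library left out. That of chromosome 5 from 107063850 stayed positive (0.91 to 2.66) under every alternative, and that of chromosome 2 from 34287523 stayed negative. The log2 fold change ranged from -1.31 to 4.58 for chromosome 1 from 140936577, from -3.01 to 3.13 for chromosome 5 from 107048559, from -8.93 to 2.64 for chromosome 5 from 66842707, from -2.61 to 3.35 for chromosome 18 from 73816849, from -10.64 to 0.70 for chromosome 6 from 115992889, from -8.08 to 4.03 for chromosome 16 from 17671638 and from -6.98 to 11.86 for chromosome 1 from 153286646. With the replicate block the log2 fold change was -2.75 for chromosome 5 from 66842707 and -1.71 for chromosome 16 from 17671638. Without the filter it was 0.35 for chromosome 6 from 115992889. The cause was not tested. Counts were smallest in total RNA, where listed members had a median of 3 and 4 reads, against 28 and 42 in RPAD.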
